A study of Homo sapiens with 18 samples.

Results

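The glutamine transfer RNAs with anticodon TTG, tRNA-Gln-TTG, were represented by 14 adenosine sites in 4 genes, out of 725 sites in 180 tRNA genes listed in the mismatch table. They were chosen by name, as every listed site of a tRNA whose name begins with tRNA-Gln-TTG. The table came from m1A-MAP-seq, an assay that sequences small RNA (under 200 nucleotides) and counts, at each adenosine, the reads that cover it and the reads that show another base. The RNA was from WPMY-1, an immortalised human prostate stromal myofibroblast line, carrying either an empty vector (wild type for TRMT61A) or an shRNA against TRMT61A (sh61A, here called the knockdown). From each line there were 3 input libraries, 3 libraries immunoprecipitated with an antibody against m1A and left without AlkB, and 3 immunoprecipitated and treated with the demethylase AlkB, 18 libraries in 6 groups. The labels do not say whether replicates were separate cultures, so p-values cover the spread of these libraries alone, and that spread may be technical. TRMT61A mRNA was not analysed here, so the knockdown itself could not be checked.

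Glutamine tRNA with this anticodon reads the glutamine codon CAA. The adenosine at standard tRNA position 58, in the loop of the T arm, is methylated to 1-methyladenosine (m1A) by the enzyme formed of TRMT6 and its catalytic partner TRMT61A. The methyl group lies on the edge that pairs with uridine, so reverse transcriptase copying the RNA from its 3′ end often stops there or inserts a wrong base, and AlkB removes the methyl group. Both readouts at this adenosine are used here: the mismatch rate, and the share of reads from the 3′ end that continue across it, called read-through below.

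The Gln-TTG genes are 72 bases long, and the adenosine of standard position 58 is base 57 of each, A57. The sequences are printed to show how little tells the genes apart; they come from the deposited table, 5′ to 3′ on the transcribed strand, with A57 in capitals, and Gln-CTG-1-4, the gene compared from the other glutamine anticodon, stands last.
Gln-TTG-1-1: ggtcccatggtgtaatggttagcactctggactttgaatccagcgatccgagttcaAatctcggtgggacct
Gln-TTG-2-1: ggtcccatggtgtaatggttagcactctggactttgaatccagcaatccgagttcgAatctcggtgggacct
Gln-TTG-3-3: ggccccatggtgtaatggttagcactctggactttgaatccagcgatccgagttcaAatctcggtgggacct
Gln-TTG-4-1: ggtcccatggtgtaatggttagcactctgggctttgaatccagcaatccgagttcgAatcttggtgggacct
Gln-CTG-1-4: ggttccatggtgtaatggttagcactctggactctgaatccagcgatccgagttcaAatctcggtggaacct

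On hg38, Gln-TTG-1-1 lies at chr17:49192528-49192599 on the plus strand, Gln-TTG-2-1 at chr6:28589379-28589450 (plus), Gln-TTG-3-3 at chr6:27795861-27795932 (minus) and Gln-TTG-4-1 at chr6:145182723-145182794 (plus). Each site is inside the tRNA gene itself. RefSeq names the genes TRQ-TTG1-1, TRQ-TTG2-1, TRQ-TTG3-3 and TRQ-TTG4-1. Gln-TTG-3-3 stands in the table for 3 gene copies. Gln-CTG-1-4 lies at chr15:65869062-65869133 on the minus strand. Positions below count from 1 at the 5′ end of the gene.

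From Gln-TTG-1-1 to Gln-TTG-3-3 a single substitution is found, T3C, so that the last 69 bases are shared. From Gln-TTG-1-1 to Gln-TTG-2-1 there are 2, G45A and A56G, and the last 16 bases, which begin with A57, are shared. Gln-TTG-4-1 differs from Gln-TTG-1-1 by A31G, G45A, A56G and C62T. A read that ends at A57 or nearer the 3′ end therefore cannot be told apart between Gln-TTG-1-1, Gln-TTG-2-1 and Gln-TTG-3-3, and only reads past A56 separate Gln-TTG-2-1. Gln-TTG-1-1 held a median of 49.8% to 52.9% of the reads of itself and Gln-TTG-3-3, depending on the site. The values below of Gln-TTG-1-1, Gln-TTG-2-1 and Gln-TTG-3-3 are not independent measurements. Gln-CTG-1-4 differs from Gln-TTG-1-1 by C4T, T34C and G68A, and shares its last 4 bases. The T-loop letters GTTCNANNC, searched on the transcribed strand, begin at base 52 in all 4 Gln-TTG genes, and 164 of the 180 tRNA genes (91.1%) hold them.

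The listed Gln-TTG sites are A51, A56, A57, A58 and A69 in Gln-TTG-1-1 and Gln-TTG-3-3, A57, A58 and A69 in Gln-TTG-2-1, and A58 in Gln-TTG-4-1. Reads summed over all listed sites came to 225291 to 307959 in input libraries and 115571 to 890426 in immunoprecipitated (IP) libraries. Over all sites no replicate pair agreed within sampling noise (chi-square over degrees of freedom 1.60 to 444). Over Gln-TTG sites alone this ratio was 0.733 to 2.87 in input pairs and 7.69 to 317 in IP pairs. Gln-TTG took 2.41% to 2.62% of these reads in vector input and 1.80% to 2.13% in knockdown input. It took 0.355% to 10.8% in IP libraries. Vector IP without AlkB replicate 3 stood apart with the 0.355%, a sum of 2511 over Gln-TTG sites, with 1015 reads at A69. A read counts once at each listed site it covers, so these sums exceed the number of reads and the shares also vary with read-through. Gln-TTG-4-1 was covered by 0 to 8 reads in any library and could not be tested. Of the 14 sites, 11 had at least 20 reads, the minimum used, in all 18 libraries.

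Read-through was higher in the knockdown input than in the vector input at every Gln-TTG gene that could be tested. With reads of Gln-TTG-1-1, Gln-TTG-2-1 and Gln-TTG-3-3 summed, reads at A57 were 11.6%, 11.1% and 11.8% of the reads at A69 in the vector libraries. In the knockdown libraries they were 17.3%, 16.1% and 18.8%. The groups did not overlap, at 11.5% ± 0.333 (SD, n = 3) and 17.4% ± 1.34 (n = 3), a ratio of 1.52. The exact two-sided permutation p was 0.1, the smallest that 3 libraries against 3 allow, and 0.438 after adjustment over the 14 family comparisons made.

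Per gene, limma on the log2 read-through of all 52 tRNAs with enough reads (0.5 added to both counts) called all 3 Gln-TTG genes higher at an adjusted p under 0.05. The 3 genes share reads that stop at A57 or nearer the 3′ end, so these calls are not independent of one another. Levels per gene depend on how such reads were placed, which is not known. Among all tRNAs tested, 16 of 52 were called higher, a background of 30.8%, none was called lower, and 49 of 52 had a higher value. In Gln-TTG-2-1 read-through was 7.63%, 8.16% and 7.07% in vector input and 12.1%, 13.3% and 12.8% in knockdown input. That is a log2 change of 0.74 (SE 0.09, adjusted p 0.00897). In Gln-TTG-3-3 it was 13.0%, 11.8% and 13.2% in vector and 18.8%, 17.2% and 20.8% in knockdown, a log2 change of 0.57 (SE 0.11, adjusted p 0.0295).

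In Gln-TTG-1-1 read-through was 13.8%, 13.2% and 14.4% in vector and 20.7%, 17.8% and 22.3% in knockdown, a log2 change of 0.55 (SE 0.11, adjusted p 0.0319). In each gene the 3 knockdown libraries lay above the 3 vector libraries. The same held for Gln-CTG summed and for the 59 other tRNAs summed. How many single tRNAs separated in this way is not given here. The Gln-TTG median of 0.57 compares with 0.44 over the 52 tRNAs, and in order from the highest change the 3 genes ranked 10 (Gln-TTG-2-1), 16 (Gln-TTG-3-3) and 17 (Gln-TTG-1-1). Leaving out a library lowered the limma calls over all tRNAs too. Gln-TTG gave 0 of 1 call without vector input replicate 1, 1 of 3 without vector input replicate 2, and 0 of 0 without vector input replicate 3 or knockdown input replicate 3. It gave 2 of 13 without knockdown input replicate 1 and 3 of 5 without knockdown input replicate 2. The log2 changes of the 3 genes stayed between 0.48 and 0.79 in these fits. With replicate numbers as a block limma called 0 of 52 tRNAs, and with no read minimum 3 of 66, of which 1 was Gln-TTG.

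When reads were summed by anticodon before the fit, an alternative added after the data were seen, Gln-TTG was called with a log2 change of 0.60 (limma adjusted p 0.00625). It was 1 of 9 anticodons called higher of 24, a background of 37.5%. Leaving out each input library in turn kept this call, with adjusted p from 0.00751 to 0.0269.

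**Figure D1:**
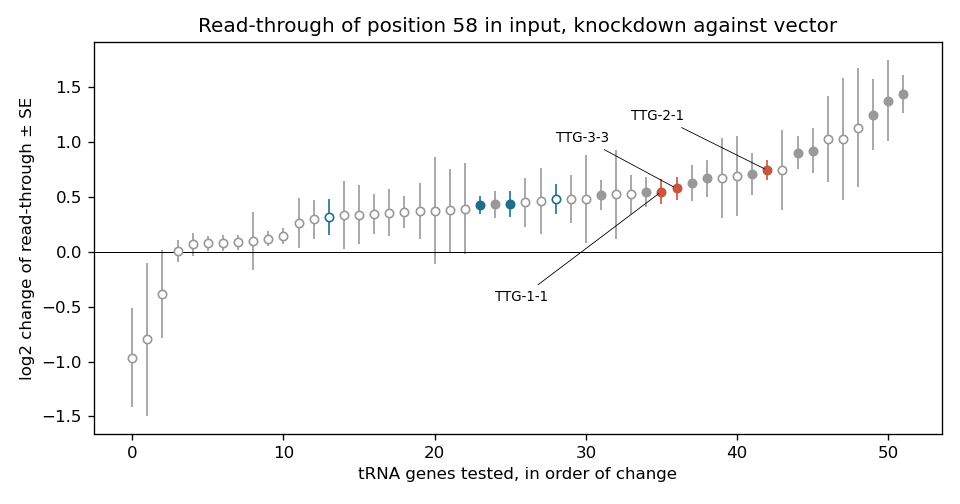
Log2 change of read-through with its SE (y axis) for the 52 tRNA genes tested in input, in order of change (x axis), knockdown against vector; red points are Gln-TTG, blue points Gln-CTG, grey points other tRNAs, and filled points were called by limma. The 3 Gln-TTG genes are filled and lie between 0.55 and 0.74, inside the range of the other called genes, and 49 of 52 points lie above 0.

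The other glutamine anticodon and the rest of the tRNAs also had higher values in the same knockdown libraries. Summed read-through of the Gln-CTG genes, which decode CAG, averaged 14.1% (13.1% to 14.9%) over the 3 vector libraries and 18.8% (17.6% to 20.2%) over the 3 knockdown libraries, a ratio of 1.34. In the 59 other tRNAs with a listed site it was 9.72% ± 0.0564 and 16.8% ± 1.09, a ratio of 1.73. The log2 change of Gln-TTG exceeded that of Gln-CTG by 0.18, and the exact permutation p of this difference was 0.3. A difference between the anticodons was not shown, and as this p cannot fall below 0.1, the test could not have shown one at 0.05.

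The position of the change along the molecule was read from consecutive sites. Reverse transcription meets A69, A58, A57, A56 and A51 in that order, and each step is the reads at one site as a share of those at the site before. The step from A69 to A58, before the methylated base is reached, was 60.7% ± 2.39 in vector input and 60.5% ± 1.80 in knockdown input (exact permutation p 1). The step from A58 to A57 was 18.3%, 19.1% and 19.5% in vector input and 29.0%, 27.3% and 30.1% in knockdown input. It rested on 378 to 509 reads at A57 per library. The groups did not overlap, with means of 19.0% ± 0.592 and 28.8% ± 1.40 and a difference of 9.81 percentage points (exact permutation p 0.1).

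Past the methylated base, the step from A57 to A56 in Gln-TTG-1-1 and Gln-TTG-3-3 was 84.0% ± 3.36 in vector input and 85.0% ± 4.27 in knockdown input (exact permutation p 0.8). The step from A56 to A51 was lower in the knockdown, at 20.4%, 17.8% and 18.4% in vector and 13.9%, 10.4% and 15.8% in knockdown. These groups did not overlap either (exact permutation p 0.1), but only 27 to 66 reads per library reached A51. Of the 12 step comparisons between knockdown and vector, in input and in both IPs, none had an adjusted p under 0.6. As the exact p cannot fall below 0.1, none could have been called at 0.05.

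Fitted per gene with limma, the step from A58 to A57 was higher in all 3 Gln-TTG genes in input, where 6 of 32 tRNAs were called higher, a background of 18.8%. The log2 changes were 0.78 in Gln-TTG-2-1 (adjusted p 0.00995), 0.57 in Gln-TTG-3-3 (adjusted p 0.016) and 0.53 in Gln-TTG-1-1 (adjusted p 0.017). This measure was also added after the data were seen. Calls over all tRNAs also fell on leaving out a library: none of 32 or 33 tRNAs was called without vector input replicate 1, knockdown input replicate 1 or knockdown input replicate 3. Gln-TTG gave 1 of 2 calls without vector input replicate 2, 2 of 3 without vector input replicate 3 and 3 of 6 without knockdown input replicate 2. The lowest Gln-TTG log2 change in any of these fits was 0.49.

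**Figure D2:**
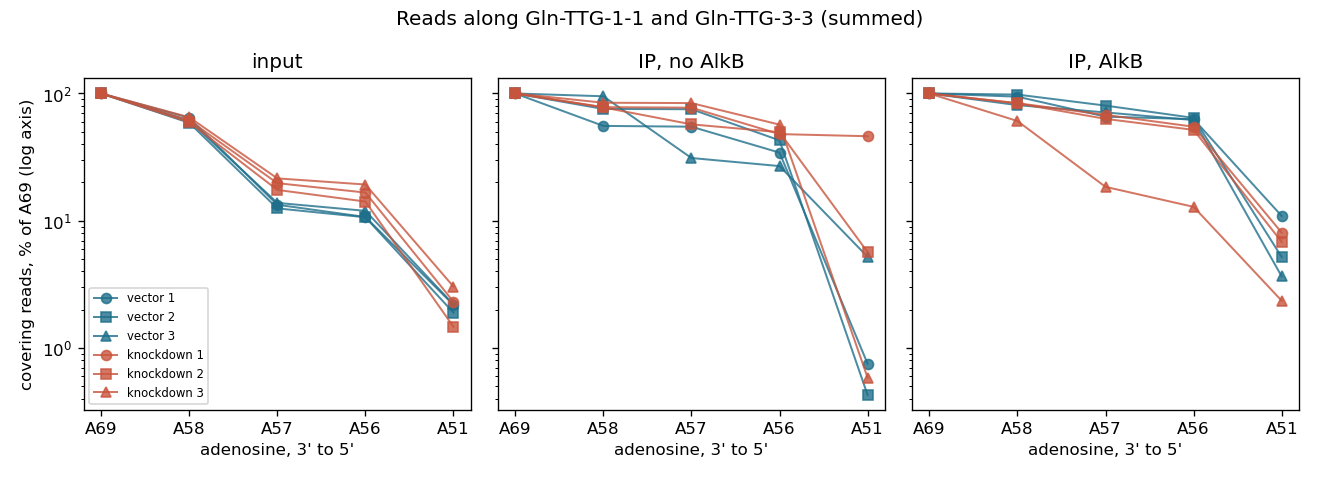
Reads at each listed adenosine of Gln-TTG-1-1 and Gln-TTG-3-3, summed, as a percentage of reads at A69 (y axis, log scale), from the 3′ end to the left (x axis); each line is 1 library, blue for vector and red for knockdown. In input the vector and knockdown curves run together to A58 and part at A57, whereas the IP libraries spread widely and knockdown IP without AlkB replicate 1 stays high at A51.

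The number of reads over Gln-TTG sites was tested with edgeR's quasi-likelihood test on counts with TMM scaling. In input, A58 and A69 of Gln-TTG-1-1, Gln-TTG-2-1 and Gln-TTG-3-3 were lower in the knockdown, 6 of the 13 Gln-TTG sites tested, with log2 changes from -0.38 to -0.47. A read that covers both sites is counted at both and the 3 genes share reads, so these calls are not independent of one another. Among all sites tested, 120 of 475 were called lower, a background of 25.3%, and 93 were called higher, 19.6%, of which 0 were Gln-TTG sites. These directions depended on the scaling. With libraries scaled by the reads at 3′-end sites, the median of all sites moved by 0.51, 86.6% of called sites were higher in place of 43.7%, 5 Gln-TTG sites (A56 and A57) were called higher and 0 lower, and the 6 sites had log2 changes of 0.039 to 0.13. In such data, fewer molecules and fewer molecules copied cannot be told apart.

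In IP without AlkB 0 of 436 sites were called by edgeR (0.0%), and in IP with AlkB 0 of 541 (0.0%). At an unadjusted p under 0.05 there were 24 sites, 2 of them Gln-TTG, and 23 sites, 6 of them Gln-TTG. DESeq2 called 0 Gln-TTG sites in either. Gln-TTG took 2.04%, 2.78% and 2.78% of the reads summed over sites in the vector libraries treated with AlkB and 7.30%, 2.33% and 10.8% in the knockdown ones, with an overlap through knockdown replicate 2. Without that library edgeR called 33 of 510 sites, a background of 6.47%, of which 6 of the 13 Gln-TTG sites tested were called, all higher. As sites and genes share reads, these 6 calls are not independent of one another.

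A larger share of Gln-TTG reads crossed A57 after immunoprecipitation without AlkB than in input. In IP without AlkB, read-through was 49.9%, 75.6% and 29.3% in the vector libraries and 73.5%, 50.9% and 81.5% in the knockdown libraries. Every IP library without AlkB lay above every input library. The same held for the 59 other tRNAs summed, with 58.1% as the lowest IP value and 18.03% as the highest input value. It did not hold for Gln-CTG summed, which read 2.56% in knockdown IP without AlkB replicate 1. Single tRNAs that separated in this way were not counted. Limma with the replicate number as a block called all 3 Gln-TTG genes higher in IP than in input, in vector with log2 changes of 1.91 to 2.42 (24 of 45 tRNAs called, a background of 53.3%) and in knockdown with 1.85 to 1.98 (20 of 44, a background of 45.5%). In vector, Gln-TTG gave 0 of 19 calls without replicate 1, 1 of 17 without replicate 2 and 0 of 5 without replicate 3. In knockdown it gave 2 of 24 without replicate 1, 3 of 13 without replicate 2 and 0 of 0 without replicate 3.

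The IP libraries varied far more than the inputs in the step that spans A57. Without AlkB, the step from A58 to A57 was 98.3%, 99.5% and 30.6% in vector and 99.0%, 68.4% and 99.3% in knockdown. With AlkB it was 63.8%, 77.8% and 87.1% in vector and 77.9%, 69.9% and 27.6% in knockdown. The low values were 1 vector library without AlkB (replicate 3, the library with the sum of 2511 over Gln-TTG sites) and 1 knockdown library with AlkB (replicate 3). In neither kind of IP did knockdown and vector separate. The depth of these libraries and the step were not tested against each other.

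**Figure D3:**
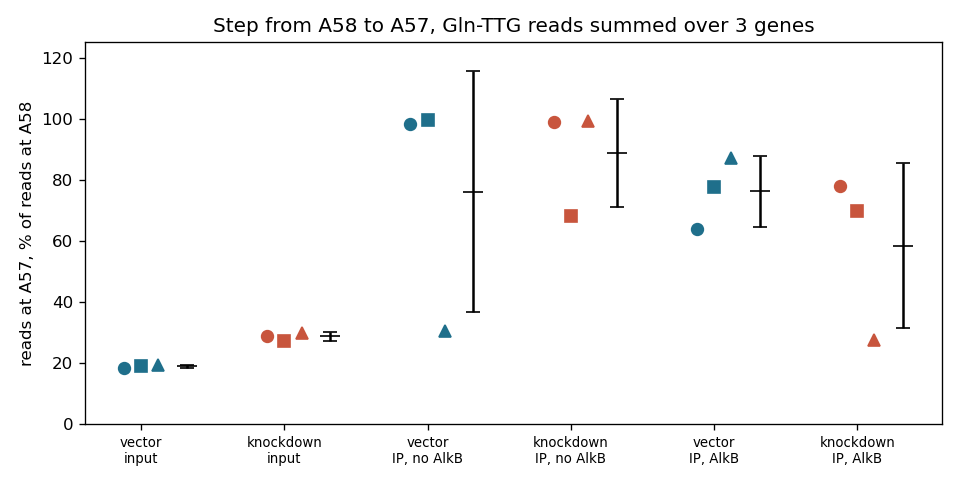
Reads at A57 as a percentage of reads at A58 (y axis), summed over 3 Gln-TTG genes, in each of the 6 groups (x axis); points are libraries (circle, square and triangle for replicates 1, 2 and 3), and black bars are the mean ± SD. The input groups are tight at 19.0% and 28.8%, and the IP groups span 27.6% to 99.5%.

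The knockdown effect on read-through was not detectable in either IP. In IP without AlkB limma called 0 of 44 tRNAs (0.0%; 5 at an unadjusted p under 0.05, 0 of them Gln-TTG), with Gln-TTG log2 changes of 0.30 to 0.53 and SEs of 0.35 to 0.56. In IP with AlkB it called 0 of 44 (0.0%; 0 at an unadjusted p under 0.05), with Gln-TTG log2 changes of -0.72 to -0.91. There read-through was 58.8%, 75.0% and 68.3% in vector and 63.0%, 56.3% and 16.3% in knockdown. The difference between the knockdown effect in IP and in input was called by limma for 0 of 41 tRNAs without AlkB and 0 of 42 with AlkB. At an unadjusted p under 0.05 there were 8 tRNAs without AlkB, 0 of them Gln-TTG, and 9 with AlkB, among them all 3 Gln-TTG genes, with differences of -1.29 to -1.65 on the log2 scale and limma adjusted p of 0.172 to 0.207.

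AlkB treatment, which should remove m1A before copying, gave no call on Gln-TTG read-through. In vector, limma called 4 of 45 tRNAs higher with AlkB (8.89%), none of them Gln-TTG, whose log2 changes were 0.25 to 0.54. In knockdown it called 0 of 39 (0.0%; 1 at an unadjusted p under 0.05, 0 of them Gln-TTG), with Gln-TTG changes of -0.71 to -0.97. In replicates 1, 2 and 3 of vector the AlkB-treated library read 58.8%, 75.0% and 68.3% against 49.9%, 75.6% and 29.3% untreated, so 2 of 3 were higher. The step from A58 to A57 was 63.8%, 77.8% and 87.1% treated against 98.3%, 99.5% and 30.6% untreated. That step was lower with AlkB in replicates 1 and 2. By contrast, the step from A69 to A58 was 92.1%, 96.4% and 78.4% treated against 50.8%, 76.0% and 95.7% untreated.

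Mismatch rates at Gln-TTG sites were low in all groups. Over the 227 values that rested on at least 20 reads, the rate ranged from 0% to 4.55% with a median of 0.485%, and 6 values reached 2%. These 6 were 1 of 22, 1 of 48, 1 of 30 and 1 of 47 reads at A51, 2 of 93 at A56 and 6 of 248 at A58. At A57, with genes summed, 1 of 509, 2 of 378 and 1 of 437 reads were mismatched in vector input, and 3 of 427, 2 of 436 and 3 of 459 in knockdown input. The rates were 0.318% ± 0.183 and 0.605% ± 0.129 (SD, n = 3) and overlapped, with an exact permutation p of 0.2. In Gln-TTG-2-1, 0 of 272 vector input reads were mismatched at A57, which allows a share of up to 1.10%, and 1, 1 and 0 reads were mismatched in the knockdown libraries. Intervals and limits here cover counting error only.

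The neighbouring A58 had a higher rate than A57 in each of the 6 input libraries, a difference that was not tested. With genes summed, A58 showed 0.863%, 0.806% and 0.891% mismatches in vector input and 0.744%, 1.06% and 0.851% in knockdown input, which overlapped (exact permutation p 0.9). A69 lay between 0.136% and 0.370% in the 6 input libraries. At A57 the IP libraries showed 0.524%, 0.525% and 0.337% in vector and 0.606%, 0.236% and 0.655% in knockdown without AlkB, and 0.413%, 0.474% and 0.539% in vector and 0.574%, 0.441% and 1.29% in knockdown with AlkB. No group of IP libraries stood clear of another at A57. A58 in IP with AlkB was lower in the knockdown, at 0.729% ± 0.0538 against 0.940% ± 0.119, without overlap (exact permutation p 0.1, adjusted p 0.921 over 35 comparisons).

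**Figure D4:**
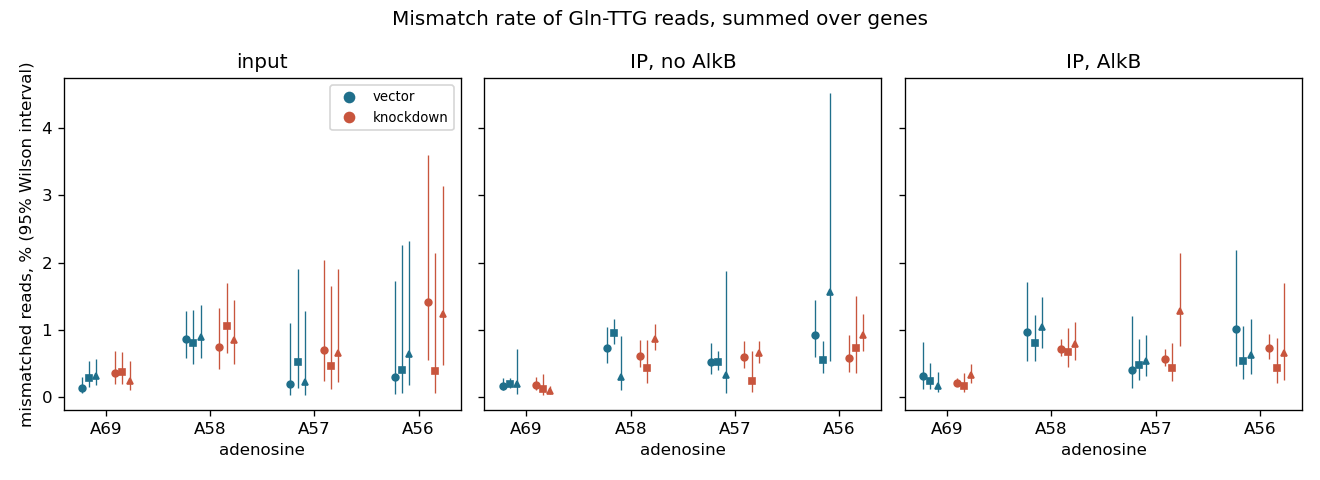
Mismatched reads as a percentage of covering reads (y axis) at A69, A58, A57 and A56 (x axis) of the Gln-TTG genes summed, for input, IP without AlkB and IP with AlkB; points are libraries, blue for vector and red for knockdown, with 95% Wilson intervals. Every point lies below 2%, and the intervals of vector and knockdown overlap at A57 in each panel.

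No Gln-TTG site was called for its mismatch rate in any comparison by the quasi-binomial model, adjusted over all sites tested. Knockdown against vector gave 2 calls of 428 sites in input (0.467%), 0 of 255 in IP without AlkB (0.0%) and 0 of 372 in IP with AlkB (0.0%). AlkB-treated against untreated IP gave 0 of 293 in vector (0.0%) and 1 of 271 in knockdown (0.369%), and IP without AlkB against input gave 0 of 270 in vector (0.0%) and 0 of 247 in knockdown (0.0%). The AlkB-sensitive mismatch, the logit rate without AlkB minus that with AlkB within a replicate, gave 0 of 228 between knockdown and vector by limma (0.0%). At an unadjusted p under 0.05 these 8 comparisons held 35, 21, 31, 7, 11, 14, 5 and 8 sites, of which Gln-TTG gave 2 in the first (A57 of Gln-TTG-2-1 and A56 of Gln-TTG-1-1) and 1 in knockdown IP against input (A57 of Gln-TTG-1-1). Limma on logit rates called 0 Gln-TTG sites in the 7 comparisons where it was the alternative.

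For comparisons within a replicate number the result depended on how the spread was modelled. The blocked model as first written called 36, 26, 70 and 53 sites in the 4 comparisons within a line (AlkB in vector, AlkB in knockdown, IP in vector, IP in knockdown). Gln-TTG had 1 call in the AlkB comparison of the knockdown and 1 in the IP comparison of the vector. The first was A51 of Gln-TTG-1-1, at 0.125% without and 0.168% with AlkB, with overlapping groups. The second was A57 of Gln-TTG-2-1, at 0% in input and 0.777% ± 0.477 in IP, without overlap. On simulated counts, which held counting noise alone around set rates, that version made 31 false calls among the 233 unchanged sites of 293. The version reported here, which holds the dispersion at 1 or more where a group has no mismatched read or under 3 pairs carry any, made 1. That change was made after the calls had been seen. The simulated counts had a dispersion of 1 by design, so they cannot show which version suits the IP libraries.

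The authors' deposited table also gives, for each replicate, the mismatch rate without AlkB minus that with AlkB, with negative values set to 0. It was above 0 at 3 to 8 of the 14 Gln-TTG sites in a replicate, against 169 to 301 of the 725 sites over the whole table. It was above 0 in all 6 replicates at 0 of the 14 Gln-TTG sites and at 4 of the 725.

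Across the 18 libraries, the tRNAs whose log2 read-through moved most like that of summed Gln-TTG were Leu-CAA-4-1 (Pearson r 0.866), Val-CAC-1-7 (0.865) and Val-AAC-1-1 (0.865), among 35 that passed the minimum of 20 at the 3′ end throughout. The libraries share the contrast of input with IP, so these are descriptions of likeness in level only.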

How the data were processed

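Mismatched reads, covering reads and their quotient, the mismatch rate, were taken as deposited: whole-number counts and a fraction per site and library, with the authors' columns of differences of rates and of fold (ratio), of which only the differences above 0 were counted. The submitters' processing notes name cutadapt 1.9.3, Bowtie2 2.2.4, SAMtools 1.3.1 and hg38, without their roles. How reads that match several tRNA genes were placed, and whether site counts were limited, is not given in the sources used here. The highest site count was 8015, and A69 of Gln-TTG-1-1 and Gln-TTG-3-3 in knockdown IP with AlkB replicate 1 (7961 and 7975 reads) lies near it, where read-through may be overstated. Of 725 listed sites 6 were duplicate lines and were counted once, and 19 lines held no site.

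Read-through was computed as reads at the site 15 bases before the 3′ end over the median of reads at sites 0 to 8 bases before it (0.5 added to both before log2). Tests were the quasi-binomial logistic model per site (at least 20 reads in every library compared), limma 3.58.1 on log2 read-through, edgeR 4.0.16 quasi-likelihood on site counts (DESeq2 1.42.0 as an alternative), in R 4.3.3, and exact two-sided permutation tests, with p-values adjusted by Benjamini-Hochberg and called under 0.05. Comparisons of AlkB or of IP with input within a line were blocked by replicate number: the labels' protocols say that immunoprecipitated RNA was divided for AlkB treatment and the numbers were taken to join input and IP; those between lines had none. The blocked mismatch model departs from the planned one: pairs without a mismatched read were dropped and the dispersion was held at 1 or more where a group had none or under 3 pairs carried any, chosen after the calls were seen.

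Each test was run on simulated counts. The quasi-binomial model recovered 55 of 60 changed sites with 5 false calls, the blocked one 54 of 60 with 1, read-through limma 13 of 15 with 2, and edgeR 200 of 200 with 1. The simulated mismatch change was larger than any difference seen at a tested Gln-TTG site. In the mismatch and read-through simulations, libraries deviated from set rates by counting noise alone. The recovery therefore does not show that a small mismatch change at Gln-TTG would have been found. Genes and tests were chosen with earlier results of these data known. All 4 Gln-TTG genes are named; sites are given one by one at A57 and where a test or a high rate singled them out; Gln-CTG is the comparison; the 3 tRNAs most like Gln-TTG are named by Pearson r. Same-numbered libraries deviated together (every correlation over 0.1) only for reads of IP with AlkB between the lines, where the lowest was 0.105.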

Additional observations from a re-analysis of the deposited data

How the results depend on the processing

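Of 647 repeats of 65 results under other settings, 574 were labelled the same. For values of a change, that meant the same direction and side of the threshold. For counts of calls it meant an equal count, including 0 that stayed 0, or a count of similar size. In 19 repeats, values of single genes or sites turned sign. Gln-TTG read-through calls in input fell from 3 to between 0 and 1 on leaving out one of 4 libraries (range over all 6 left out: 0 to 3). They fell to 1 with no read minimum and to 0 with the replicate block. The summed difference of 5.93 points is by construction the same with and without the block. Calls over all tRNAs fell from 16 to between 0 and 13 on leaving out a library. They fell to 3 with no read minimum and to 0 with the replicate block. With the block the other calls between lines did not change. Read-through calls of IP against input ranged from 0 to 1 in vector and from 0 to 3 in knockdown without one replicate number. Mismatch calls in input ranged from 0 to 1 (1 without knockdown replicate 3), and coverage calls in IP with AlkB from 0 to 6 (6 of 33 calls without knockdown replicate 2). The earlier blocked models, added later, gave 1 Gln-TTG mismatch call in AlkB-treated against untreated knockdown IP with all pairs kept, and 1 in vector IP against input with or without empty pairs.

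Coverage changes in input turned positive with 3′-site scaling: A69 0.11 (Gln-TTG-1-1), 0.11 (Gln-TTG-2-1) and 0.039 (Gln-TTG-3-3), A58 0.13, 0.071 and 0.044, A51 0.017 (Gln-TTG-1-1) and 0.35 (Gln-TTG-3-3). This follows the shift of 0.51 in the median of all sites. Leaving out one library at a time, the coverage change of Gln-TTG-3-3 ran from -0.017 to 0.27 at A56 and from -0.35 to 0.083 at A51. The mismatch difference at A57 in points ran from -0.434 to 0.020 in IP without AlkB and from -0.394 to 0.289 with AlkB for Gln-TTG-2-1, and from -0.0963 to 0.162 without AlkB for Gln-TTG-1-1. The log2 read-through change of Gln-TTG-2-1 ran from -0.052 to 0.75 in IP without AlkB and from -0.28 to 0.66 for AlkB in vector, and that of Gln-TTG-3-3 from -1.18 to 0.015 for AlkB in knockdown. The cause was not tested. With 378 to 509 reads at A57 per input library, mismatch rates below about 1% rest on 1 to 3 reads.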
